A study of Mus musculus with 5 samples.

Results

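The genes described here are 9 components of interleukin 7 receptor signalling, chosen by name from the 27998 gene rows of the count matrices. They are the receptor chains Il7r and Il2rg, the kinases Jak1 and Jak3, the transcription factors Stat5a and Stat5b, and the inhibitors Socs1, Socs3 and Cish. All 9 had a row in each of the 5 matrices. The libraries were single-cell RNA libraries, which count unique molecular identifiers (UMIs, 1 per captured RNA molecule) near the 3' end of polyadenylated RNA. Cells sorted as CD45-CD31+ were taken from endosteal bone marrow of Nes-GFP mice, frozen and thawed before encapsulation. Aged animals, older than 20 months, gave 2 libraries (replicates 2 and 3), and young animals of 10 to 12 weeks gave 3 libraries (replicates 1, 2 and 3). The Nes-GFP strain was shared by both ages, and the labels do not say how many animals went into a library.

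Interleukin 7 is made by bone marrow stromal cells and binds a receptor built of the interleukin 7 receptor alpha chain and the common gamma chain. JAK1 is bound to the alpha chain and JAK3 to the gamma chain, and together they phosphorylate STAT5, which enters the nucleus and switches on genes of survival and growth. In mice the pathway is required for B-cell development: it keeps precursors alive and dividing, and its signal must fall before the immunoglobulin light chain locus is opened for recombination. SOCS1, SOCS3 and CIS are made in answer to cytokine signals and block the kinases or the receptor.

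Although the labels call the sorted cells endothelial, most of the 2116 cells kept (of 3384 barcodes) carried B-lineage markers, so the genes were described in those cells. The B-lineage markers, such as Cd79a, Cd79b, Ebf1 and Pax5, summed to averages of 10472 to 18020 UMIs per 1000000 UMIs (CPM) in the B-lineage classes. They summed to 1066 CPM in a mixed cluster of basophil and endothelial genes. The 8 endothelial markers summed to averages of 14.6 to 122 CPM in the B-lineage classes, against 304 and 7538 CPM in the 2 libraries with enough cells of that mixed cluster. The libraries held 329 to 1002 barcodes and 935656 to 5900751 UMIs, and young replicate 1 was the deepest by total UMIs. Both replicate 2 libraries had 0 Xist UMIs and carried Y-linked UMIs, 284 in aged and 224 in young. The other libraries held 1118 to 8562 Xist UMIs. Libraries shared 5 barcode sequences among the kept cells.

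Clusters built without the 9 members and without 62 other pathway genes gave 1906 B-lineage cells in 5 classes. A class led by surrogate light chain genes (Vpreb1, Vpreb2, Igll1, Dntt), the mark of early precursors, held 252 cells. A class led by Cd2, a surface receptor of later precursors, held 256 cells. A class led by major histocompatibility complex (MHC) class II genes held 546 cells in clusters 0 and 8, and the dividing class held 724 cells in clusters 1, 5 and 6. The naming markers overlapped between these classes: MHC class II markers summed to averages of 6573 CPM in the MHC class II class and 5409 CPM in the Cd2 class, and the Cd2 and Ms4a1 marker list averaged 2963 CPM in cluster 8 and 2163 CPM in the Cd2 class. Cluster 0 gave 464 of the 546 MHC class II class cells. In counts scaled to an equal total, its MHC class II markers stood at 51.8, against 50.4 in the Cd2 class and 116.66 in cluster 8. These markers therefore did not separate most of the MHC class II class from the Cd2 class. On the same scale the Cd2 and Ms4a1 list stood at 11.28 in cluster 0 and 23.05 in the Cd2 class. Cluster 7, with 128 cells, stayed unnamed, and 88 of its cells came from aged replicate 2. Its surrogate light chain markers stood at 61.54 on that scale, against 133.09 in the surrogate light chain class, 18.14 in the Cd2 class and 15.65 in cluster 0. Of the dividing cells 595 came from young replicate 1. Dividing cells had a median of 4187 UMIs, against 2253 in the 1182 non-dividing cells. The other 210 kept cells were the mixed cluster and 20 neutrophil-like cells.

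The members were covered very unequally. Over all kept cells Il7r had 1373 UMIs, Il2rg 755, Jak1 753 and Socs1 378. Stat5b had 184 UMIs, Stat5a 160, Jak3 87, Socs3 86 and Cish 38, so the 5 sparse genes are given as counts first. In the GRCm38 annotation Il7r lies on chromosome 15 (9505788 to 9530176, minus strand) and Il2rg on chromosome X (101264378 to 101268255, minus strand). Jak1 lies on chromosome 4 (101152367 to 101265282, minus strand) and Jak3 on chromosome 8 (71676296 to 71690575, plus strand). Stat5b and Stat5a are neighbours on chromosome 11 (100780731 to 100850724, minus strand, and 100859351 to 100885169, plus strand), which also holds Socs3 (117966079 to 117970047, minus strand). Socs1 lies on chromosome 16 (10782240 to 10785536, minus strand) and Cish on chromosome 9 (107296026 to 107302784, plus strand). Il2rg, Jak1 and Jak3 each overlap 1 other gene on the same strand (Gm20489, Gm12785 and Insl3), and Jak1, Stat5a and Cish overlap genes on the opposite strand (among them Raver2, Stat3 and Gm17040). Reads there could be split or lost in counting.

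The sequence before the gene start is shown for the members in which a signalling motif was found, Il7r, Socs1 and Socs3. The 250 bases before the start of all 9 members (RefSeq, GRCm38.p6) were searched on both strands for TTCNNNGAA, the palindrome that STAT5 and other STAT proteins bind. A pair of GAAA letters separated by 2 bases, the core of the interferon response element, was added to the search after the Socs1 sequence had been seen. Capitals mark the matches, and all 3 sequences are read along the minus strand, on which these genes lie.
Il7r, chr15:9529999-9530028: gttcaggagcTTCAGGGAAtaccaagatgc
Socs3, chr11:117969501-117969530: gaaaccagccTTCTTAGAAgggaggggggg
Socs1, chr16:10785537-10785786: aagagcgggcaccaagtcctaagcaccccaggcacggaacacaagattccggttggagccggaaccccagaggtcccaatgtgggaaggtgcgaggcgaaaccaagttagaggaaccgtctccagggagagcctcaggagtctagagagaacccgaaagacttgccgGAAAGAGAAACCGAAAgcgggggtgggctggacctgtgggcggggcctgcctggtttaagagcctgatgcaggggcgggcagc
TTCNNNGAA was held by 7.02% of the 32851 RefSeq windows of this length and by Il7r and Socs3 alone among the 9 members. The matches begin 142 and 154 bases before the RefSeq starts, inside both genes as GENCODE draws them. The interferon response core was held by 2.98% of the windows and by Socs1 alone among the members, in 2 overlapping matches that begin 83 bases before the start. A match is a run of letters, and these data hold no measure of binding.

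Il7r, the chain that gives the receptor its ligand, was lowest in the surrogate light chain class among the B-lineage classes, and higher in the Cd2 and MHC class II classes. In the surrogate light chain class it stood at 135 and 136 CPM in aged replicates 2 and 3, and at 131, 46.4 and 29.6 CPM in young replicates 1, 2 and 3. In the Cd2 class it stood at 290 and 194 CPM in the aged libraries and at 233 and 207 CPM in young replicates 2 and 3 (young replicate 1 had under 10 cells of that class). In the MHC class II class it stood at 269 and 224 CPM in the aged libraries and at 220, 289 and 206 CPM in the young libraries. With classes drawn from clusters, no library of the Cd2 or MHC class II class overlapped the surrogate light chain class. Cluster 7, which also carried surrogate light chain markers, was not part of that class. The mean was 95.5 ± 52.8 CPM in the surrogate light chain class (SD, n = 5 libraries) and 269 ± 59.7 CPM in cluster 7 (n = 3). It was 231 ± 42.5 CPM in the Cd2 class (n = 4) and 242 ± 35.4 CPM in the MHC class II class (n = 5), and these 3 higher means lay within their spread.

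**Figure D1:**
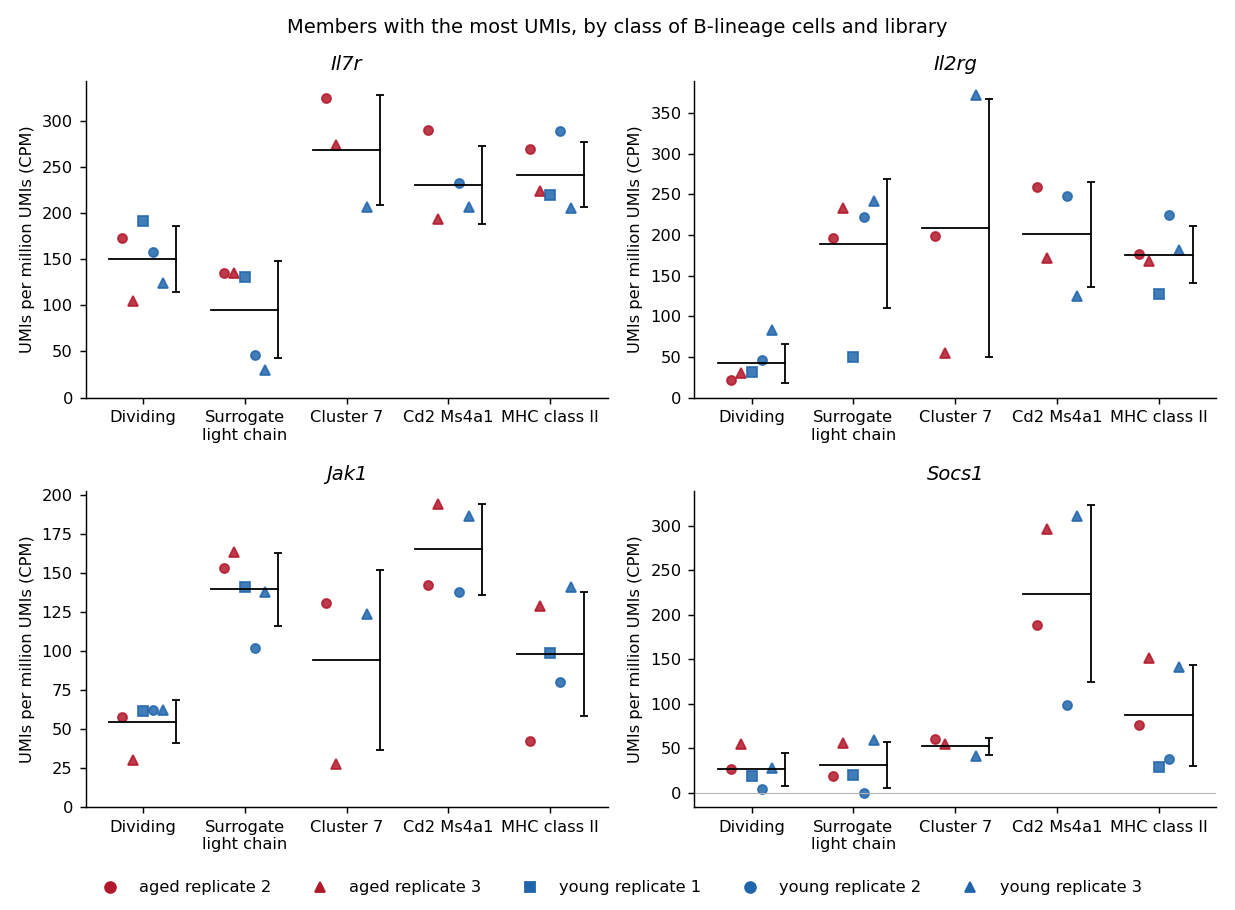
Levels of Il7r, Il2rg, Jak1 and Socs1 in UMIs per 1000000 UMIs (vertical axes) in 5 classes of B-lineage cells (horizontal axes); each symbol is the summed count of 1 library with at least 10 cells of the class (red aged, blue young), the line is the mean and the bar the SD over libraries. Il7r is lowest in the surrogate light chain class (29.6 to 136 CPM), Il2rg and Jak1 are lowest in the dividing class, and Socs1 is highest in the Cd2 class (98.5 to 311 CPM).

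Against the surrogate light chain class, Il7r was higher in the MHC class II class by 1.36 ± 0.21 on the log2 scale (SE, edgeR quasi-likelihood test with library as a block, adjusted p = 6.2e-08) and in the Cd2 class by 1.28 ± 0.24 (adjusted p = 1.0e-05). Il7r and Socs1, 2 of the 4 members with enough counts to be tested, were called higher in each of these comparisons. Of 4589 genes 12.9% were called higher (26.6% either way) in the MHC class II class and 12.4% (26.8% either way) in the Cd2 class. Both calls were kept in all 11 alternative settings, with Il7r differences of 0.82 to 1.63 and 0.86 to 1.58. The smallest came with marker gates in place of clusters, where the aged replicate 2 surrogate light chain sum (116 cells) reached 265 CPM. That was above the 186 CPM of the MHC class II sum of the same library. With the gates the surrogate light chain levels (36.1 to 265 CPM) overlapped those of the MHC class II class (167 to 298 CPM) and of the Cd2 class (197 to 315 CPM). A class gated on Rag1 and Rag2 (the Rag class) was drawn only under those gates. It need not hold the cells richest in Rag genes. Among the clusters, the Rag marker list was highest in the Cd2 class, at 43.56 in counts scaled to an equal total. It stood at 37.97 in cluster 7 and 31.78 in the surrogate light chain class. In the gated Rag class the Il7r difference from the surrogate light chain class was 1.10 ± 0.41 (edgeR, adjusted p = 0.103). Of the members 0 were called, where 7.12% of 4019 genes were.

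In cells thinned to 1000 UMIs each and pooled over libraries, Il7r was detected in 9.13% of surrogate light chain cells and 20.7% of Cd2 class cells. It was detected in 20.9% of MHC class II class cells and 19.9% of dividing cells. The share was 2.63% in the mixed cluster, where the source of the UMIs was not tested, and 0 of 20 in the neutrophil-like cells. Those clusters had medians of 7881 and 16864 UMIs per cell before thinning, against 2886 in the surrogate light chain class.

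Within the MHC class II class, the small cluster 8 (82 cells), led by Ms4a1 and the highest MHC class II counts, had less Il7r than cluster 0 (464 cells). Cluster 8 held 29.7 CPM in aged replicate 3 and 157, 146 and 50.3 CPM in young replicates 1, 2 and 3, against 245 CPM in aged replicate 3 and 257, 371 and 218 CPM in the same young libraries in cluster 0. The levels did not overlap. The difference was -1.36 ± 0.33 on the log2 scale (edgeR, adjusted p = 0.0033), in a comparison added after the clusters had been seen, where 5.83% of 4444 genes were called. Rag1 and Rag2, the recombinase genes, also fell in cluster 8, by 2.45 ± 0.46 and 3.83 ± 0.92 (edgeR, adjusted p = 3.7e-05 and 0.0028). The Il7r levels of cluster 8 overlapped the 29.6 to 136 CPM of the surrogate light chain class.

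Il2rg, the gamma chain that is shared with the receptors of several other interleukins, was low in dividing cells, and no difference between resting stages passed the test. In the dividing cells it stood at 21 and 30 CPM in the aged libraries and at 31.5, 45.7 and 82.6 CPM in the young libraries, against 210 and 183 CPM in the aged and 96.4, 233 and 207 CPM in the young non-dividing cells. The levels did not overlap. Il2rg was lower in the dividing cells by 3.83-fold (log2 difference -1.94 ± 0.20, edgeR, adjusted p = 2.6e-10). After thinning it was detected in a mean of 5.69% of dividing and 17.7% of non-dividing cells (n = 5 libraries). In young replicate 1, which gave 595 of the dividing cells, these shares were 3.70% and 7.21%. Il2rg fell likewise when the dividing class was set against the surrogate light chain class alone (-1.99 ± 0.24, edgeR, adjusted p = 8.7e-12), and both calls were kept in all 11 settings.

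Across the non-dividing classes Il2rg averaged 189 ± 79.4 CPM in the surrogate light chain class (n = 5) and 208 ± 159 CPM in cluster 7 (n = 3). It averaged 201 ± 64.4 CPM in the Cd2 class (n = 4) and 176 ± 34.7 CPM in the MHC class II class (n = 5), all within their spread. The difference from the surrogate light chain class was -0.13 ± 0.19 in the MHC class II class and 0.06 ± 0.22 in the Cd2 class (edgeR, adjusted p = 0.678 and 0.877). The surrogate light chain cells of young replicate 1 stood apart at 50.3 CPM (5 UMIs), against 196 to 241 CPM in the other 4 libraries. Il2rg is X-linked, and its non-dividing level lay at 210 and 233 CPM in the libraries without Xist UMIs and between 96.4 and 207 CPM in those with them.

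**Figure D2:**
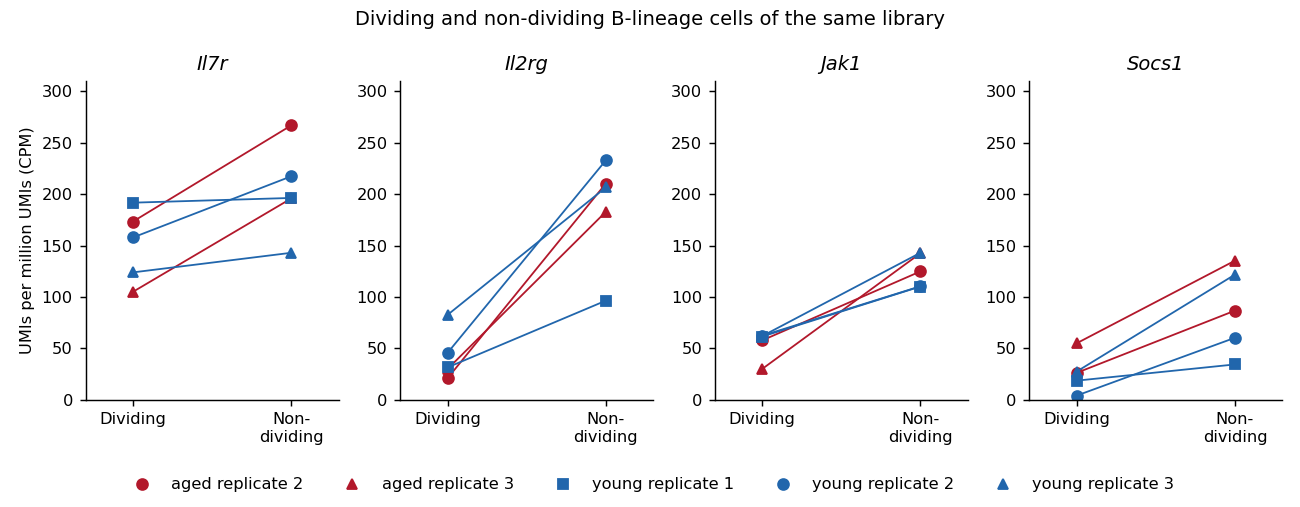
Levels of Il7r, Il2rg, Jak1 and Socs1 in UMIs per 1000000 UMIs (vertical axis) in dividing and non-dividing B-lineage cells; each line joins the sums of 1 library (red aged, blue young). All 5 lines rise to the non-dividing side for each gene, least for Il7r and most for Il2rg (21 to 82.6 CPM in dividing and 96.4 to 233 CPM in non-dividing cells).

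Il7r itself changed less with division. It stood at 173 and 105 CPM in the aged and at 192, 158 and 124 CPM in the young dividing cells, against 267 and 196 CPM in the aged and 196, 217 and 143 CPM in the young non-dividing cells. Each library had a lower value in its dividing cells, and the difference of -0.31 ± 0.15 did not pass the threshold (edgeR, adjusted p = 0.0881). It passed with every barcode of 500 UMIs (-0.40, adjusted p = 0.0434) and without young replicate 1 (-0.50, adjusted p = 0.0147). Against the surrogate light chain class alone, Il7r was higher in the dividing class by 0.79 ± 0.22 (edgeR, adjusted p = 0.0019), in 4 of 5 libraries. That call was lost with marker gates (0.47, adjusted p = 0.132) and was kept in the other 10 settings. Most of the dividing class lay in clusters 1 and 6 (440 and 130 cells). Their surrogate light chain markers stood at 7.46 and 9.35 in counts scaled to an equal total, against 133.09 in the surrogate light chain class. Stage and division therefore cannot be told apart in this comparison, for Il7r or for the other members.

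Dividing cells were not uniform in Il7r. Cluster 1, led by genes of mitosis such as Ube2c and Top2a, held 197 CPM in aged replicate 3 and 253, 254 and 161 CPM in young replicates 1, 2 and 3. Cluster 5, led by growth genes such as Srm and Nme1 and richer in surrogate light chain transcripts, held 143 and 44.6 CPM in the aged libraries and 102 and 75.7 CPM in young replicates 1 and 3. The levels did not overlap, and Il7r was higher in cluster 1 by 1.03 ± 0.24 (edgeR, adjusted p = 3.0e-04). It was the 1 member called of 4 tested, where 24.2% of 4444 genes were called. This comparison too was added after the clusters had been seen. Without young replicate 1, which gave 389 of the 440 cells of cluster 1, Il2rg was called as well (2.02, adjusted p = 0.0198). The surrogate light chain markers summed to averages of 1006 CPM in cluster 1 and 3457 CPM in cluster 5, and the MHC class II markers to 2216 CPM in cluster 1 and 363 CPM in cluster 5. Their part in the result was not tested.

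**Figure D3:**
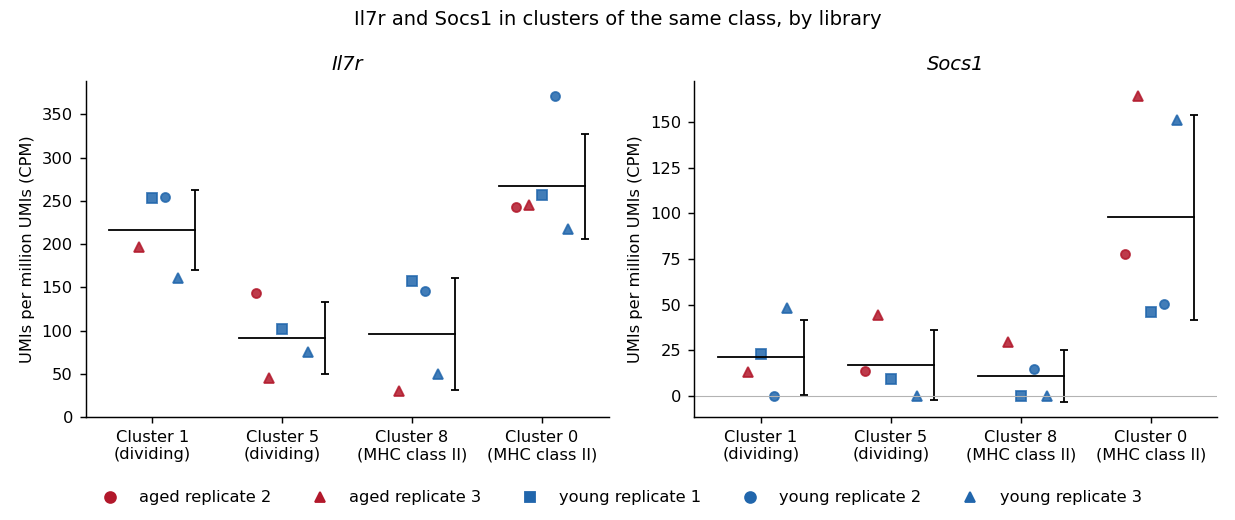
Levels of Il7r and Socs1 in UMIs per 1000000 UMIs (vertical axes) in clusters 1 and 5 of the dividing class and clusters 8 and 0 of the MHC class II class; each symbol is 1 library with at least 10 cells of the cluster (red aged, blue young), the line is the mean and the bar the SD. Il7r is higher in cluster 1 than in cluster 5 (161 to 254 against 44.6 to 143 CPM), and both genes are lower in cluster 8 than in cluster 0.

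Jak1, the kinase of the alpha chain, was a smaller share of the UMIs in dividing cells, and its differences between resting stages did not pass the threshold. It stood at 57.8 and 30 CPM in the aged and at 61.6, 62.3 and 62.0 CPM in the young dividing cells, against 125 and 143 CPM in the aged and 110, 110 and 143 CPM in the young non-dividing cells. The levels did not overlap, and the fall was 2.02-fold (log2 difference -1.02 ± 0.20, edgeR, adjusted p = 4.1e-05). Before thinning, 30.8 and 15% of aged and 28.2, 44 and 21.1% of young dividing cells held a Jak1 UMI. In non-dividing cells the shares were 29.0 and 21.7% (aged) and 25.2, 26.8 and 26.5% (young), and the ranges overlapped. After thinning, Jak1 was detected in a mean of 4.68% of dividing and 12.3% of non-dividing cells (n = 5 libraries). Its mean was 165 ± 29.1 CPM in the Cd2 class (n = 4) and 140 ± 23.4 CPM in the surrogate light chain class (n = 5). It was 98.1 ± 39.5 CPM in the MHC class II class (n = 5) and 94.1 ± 57.8 CPM in cluster 7 (n = 3), and each neighbouring pair in this order overlapped. The difference from the surrogate light chain class was -0.38 ± 0.22 in the MHC class II class and 0.21 ± 0.25 in the Cd2 class (edgeR, adjusted p = 0.214 and 0.586). Outside the B lineage Jak1 stood at 55.6 ± 15.9 CPM in the mixed cluster (n = 2) and at 50.4 CPM in the neutrophil-like cells of young replicate 1, levels close to those of the dividing cells.

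Jak3, the kinase of the gamma chain, had 64 UMIs in B-lineage cells. The surrogate light chain class held 1 and 7 UMIs in the aged and 1, 5 and 7 UMIs in the young libraries, a mean of 26.0 ± 17.2 CPM. The MHC class II class held 0 and 2 UMIs in the aged and 0, 2 and 4 UMIs in the young libraries, a mean of 6.01 ± 6.21 CPM. The dividing class averaged 4.11 ± 2.40 CPM. Jak3 lay under the low-count filter. Without that filter its log2 difference from the surrogate light chain class was -1.79 in the MHC class II class and -1.71 in the dividing class (edgeR, adjusted p = 0.039 and 0.0286). It was -1.47 in the Cd2 class and -1.61 in cells gated on Rag1 and Rag2 (edgeR, adjusted p = 0.277 and 0.748), and -0.95 for dividing against non-dividing cells (edgeR, adjusted p = 0.29).

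Stat5a and Stat5b, the near-identical transcription factors at the end of the cascade, lay under the low-count filter in most comparisons, and neither was called where it was tested. With every barcode of 500 UMIs Stat5a passed the filter and was called lower in dividing than in non-dividing cells (-1.13, edgeR, adjusted p = 0.0227). Stat5a had 6 and 3 UMIs in the aged and 4, 3 and 8 UMIs in the young surrogate light chain sums, a mean of 31.7 ± 11 CPM. It averaged 14.2 ± 11.3 CPM in the Cd2 class, 17.9 ± 18.7 CPM in the MHC class II class and 9.69 ± 6.03 CPM in the dividing class. Stat5b averaged 29.6 ± 12.8 CPM in the surrogate light chain class, 23.9 ± 5.23 CPM in the Cd2 class, 11.8 ± 9.88 CPM in the MHC class II class and 18.6 ± 7.12 CPM in the dividing class. The ranges of the classes overlapped for both genes. Stat5b differed by 0.03 ± 0.37 between dividing and non-dividing cells (edgeR, adjusted p = 0.96), an interval too wide to show equality, and its sign turned with DESeq2, with every barcode and with marker gates. Both genes had few UMIs, so their separate values are uncertain. Whether reads of such similar genes were lost or misassigned in counting was not tested.

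**Figure D4:**
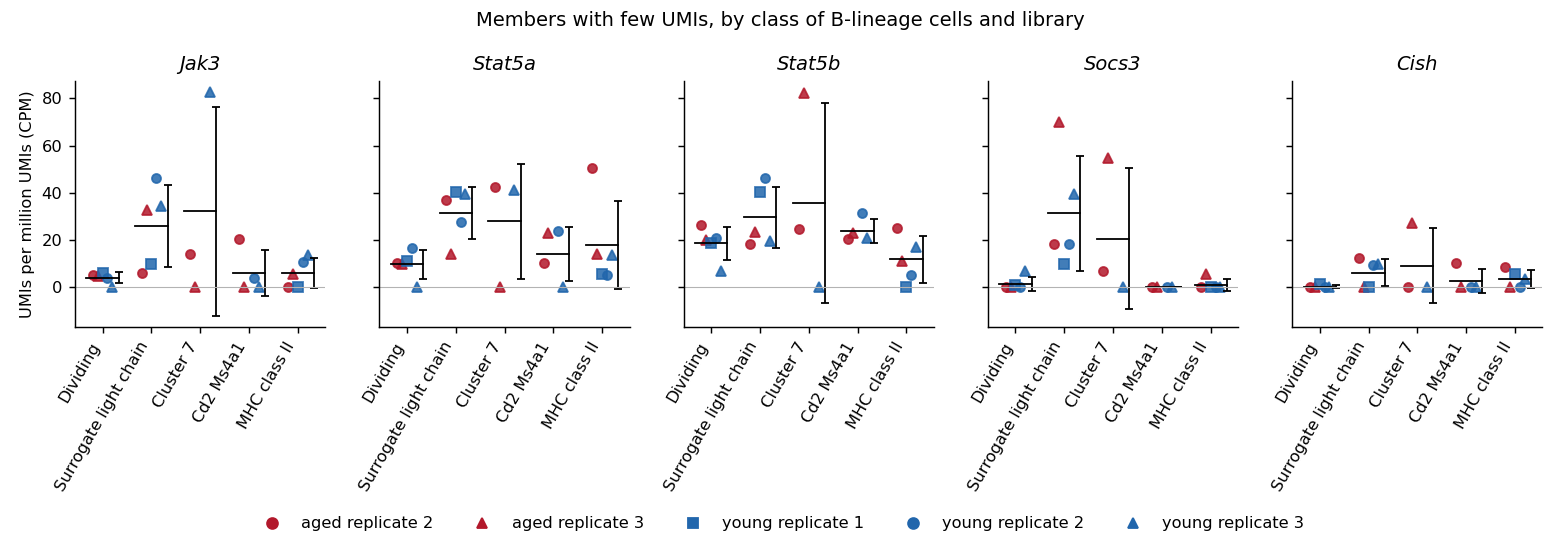
Levels of Jak3, Stat5a, Stat5b, Socs3 and Cish in UMIs per 1000000 UMIs (shared vertical axis) in 5 classes of B-lineage cells; each symbol is 1 library with at least 10 cells of the class (red aged, blue young), the line is the mean and the bar the SD. Socs3 lies at 10.1 to 70.1 CPM in the surrogate light chain class and at 0 CPM in every library of the Cd2 class.

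Socs1, an inhibitor of JAK1, was higher in both later resting classes than in the surrogate light chain class, and more so in the Cd2 class. It stood at 188 and 297 CPM in the aged and at 98.5 and 311 CPM in young replicates 2 and 3 in the Cd2 class, and at 75.7 and 151 CPM in the aged and 29.0, 37.4 and 141 CPM in the young MHC class II class. In the surrogate light chain class it stood at 18.4 and 56.1 CPM in the aged and at 20.1, 0 and 59.1 CPM in the young libraries. The Cd2 class did not overlap the surrogate light chain class. The MHC class II class did, although each library was higher there than in its own surrogate light chain sum. The difference was 2.66 ± 0.31 in the Cd2 class (6.30-fold, edgeR, adjusted p = 5.4e-12) and 1.49 ± 0.31 in the MHC class II class (adjusted p = 4.8e-05), both kept in all 11 settings.

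Socs1 was also higher in the Cd2 class than in the MHC class II class (1.17 ± 0.25, edgeR, adjusted p = 7.7e-04), in a comparison added after the data had been seen. It was the 1 member called of 4 tested, where 4.23% of 4589 genes were, and was kept in all 11 settings. The MHC class II class was mostly cluster 0, whose MHC class II markers stood close to those of the Cd2 class. Cluster 8 held 1 UMI of Socs1 in aged replicate 3 and 0, 1 and 0 UMIs in young replicates 1, 2 and 3, against 164 CPM in aged replicate 3 and 45.9, 50.6 and 151 CPM in those young libraries in cluster 0. The fitted difference of -3.05 ± 0.75 (edgeR, adjusted p = 0.0034) rests on those few counts. It was -2.44 without young replicate 1, where it missed the threshold (adjusted p = 0.0599), and -3.67 without young replicate 2 (adjusted p = 0.0063). Dividing cells were low in Socs1, with 26.3 and 55.0 CPM in the aged and 18.7, 4.16 and 27.5 CPM in the young libraries, against 86.8 and 135 CPM in the aged and 34.4, 60.4 and 122 CPM in the young non-dividing cells. The difference was -1.46 ± 0.26 (edgeR, adjusted p = 1.1e-05), and 0.01 ± 0.46 when the dividing class was set against the surrogate light chain class alone (adjusted p = 0.984).

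A list of 9 immediate early genes, which answer handling as well as receptor signals, was read beside Socs1. Their summed level averaged 3348 CPM in the surrogate light chain class, 4863 CPM in the Cd2 class (5 of 9 detected in at least 10% of cells), 3523 CPM in the MHC class II class and 2729 CPM in the dividing class. In the Cd2 class the sum was highest in young replicate 2 at 7118 CPM, the library with the least Socs1 in that class, against 4020 to 4191 CPM in the other 3. The part of the immediate early genes in the Socs1 difference was not tested.

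Socs3, which inhibits receptors of the interleukin 6 family and JAK kinases, ran the other way. The surrogate light chain class held 3 and 15 UMIs in the aged and 1, 2 and 8 UMIs in the young libraries, a mean of 31.3 ± 24.3 CPM. The Cd2 class held 0 UMIs in every library, and the MHC class II class held 2 UMIs, both in aged replicate 3. Pooled over libraries, 0 of 598165 UMIs in the Cd2 class allow up to 5.02 CPM, so the surrogate light chain class, at 36.8 CPM (exact lower limit 24.7 CPM), was at least 4.92-fold higher, a bound that covers counting error only. Its aged replicate 3 held 15 of the 29 UMIs. The bound was 2.27-fold without that library and 3.01-fold without young replicate 2. Socs3 lay under the low-count filter. Without that filter its log2 difference from the surrogate light chain class was -4.08 in the MHC class II class and -3.57 in the dividing class (edgeR, adjusted p = 1.4e-05 and 7.8e-05). Socs3 was also called lower than in the surrogate light chain class in both of these and in the Cd2 class with DESeq2 and when aged replicate 2 or young replicate 3 was left out. Without the filter it was also called lower in the Cd2 class, and in dividing than in non-dividing cells (-2.37, edgeR, adjusted p = 0.0323). Of its UMIs over all kept cells, 47 of 86 lay in the mixed cluster. The endothelial markers summed to an average of 122 CPM in the surrogate light chain class, above the 14.6 to 30.1 CPM of the other B-lineage classes, and their part in the Socs3 level was not tested.

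Cish, a STAT5 target gene whose product blocks the receptor, was near the limit of detection. B-lineage cells held 16 of its UMIs in all: 5 in the surrogate light chain class, 1 in cluster 7, 2 in the Cd2 class, 3 in the MHC class II class and 5 in the dividing class, all of the last in young replicate 1. Cish lay under the low-count filter in every comparison.

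**Figure D5:**
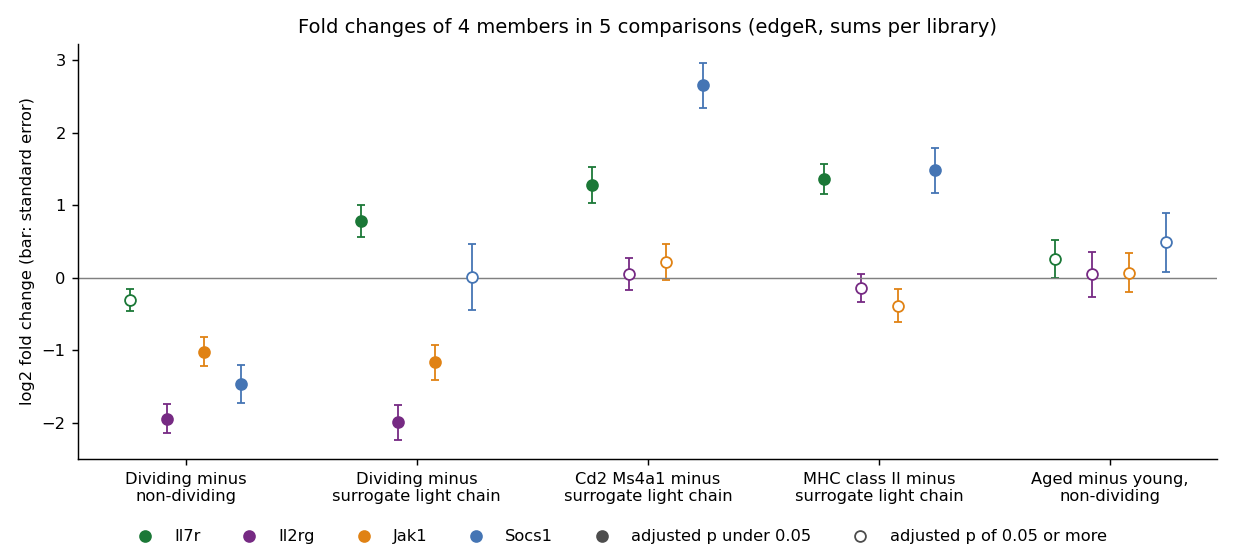
Log2 fold changes (vertical axis, bars are standard errors) of Il7r, Il2rg, Jak1 and Socs1 in 5 comparisons (horizontal axis) from edgeR on sums per library; filled symbols passed an adjusted p of 0.05. Il7r and Socs1 are higher in both later classes than in the surrogate light chain class, Il2rg and Jak1 are lower in dividing cells, and no member passed between aged and young.

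Dividing against non-dividing cells called 3 of the 5 tested members, Il2rg, Jak1 and Socs1, all lower, where 23.3% of 6508 genes were called lower and 47.8% either way. The median over the 5 tested members was -1.02 on the log2 scale and over all genes tested -0.06. Dividing against surrogate light chain cells called 3 of 4, Il2rg and Jak1 lower and Il7r higher, where 46.9% of 4589 genes were called. The members' counts stand beside a high background in both comparisons. CPM is a share of a cell's UMIs, and dividing cells held more UMIs. Pooled over libraries, the share of cells with any Il7r UMI was 56.9% in dividing and 33.8% in non-dividing cells before thinning. After thinning it was 19.9% in dividing and 19% in non-dividing cells.

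Other receptor chains were lower in dividing than in non-dividing cells and mostly higher in the later classes. Of the list of 9 other chains and ligands 4 were tested, and all 4 were lower in dividing than in non-dividing cells (median -1.79, all genes -0.06), where 23.3% of all genes were called lower. Against the surrogate light chain class alone 1 of the 4 was lower, Crlf2 (-1.11 ± 0.23, edgeR, adjusted p = 1.8e-05), and 0 were higher, where 46.9% of genes were called. The log2 difference of dividing from non-dividing cells was -2.42 ± 0.22 for Il21r, -2.12 ± 0.39 for Il4ra and -1.47 ± 0.31 for Il2ra (edgeR, adjusted p = 4.1e-12, 1.8e-05 and 1.8e-04). Il21r and Il4ra encode chains that pair with the common gamma chain, as does Il2ra within the high-affinity interleukin 2 receptor. In the Cd2 class 3 of the 4 were higher than in the surrogate light chain class (12.4% of all genes higher). Il21r stood at 395 ± 88.5 CPM in the Cd2 class against 33.0 ± 15.9 CPM in the surrogate light chain class. Il2ra stood at 80.8 ± 27.5 CPM in the Cd2 class against 4.76 ± 4.79 CPM. In the MHC class II class 3 of the 4 were higher too (12.9% of all genes higher), among them Il21r and Il2ra. Crlf2, the partner of the alpha chain in the receptor for thymic stromal lymphopoietin, was lower in the MHC class II class, at 93.3 ± 21 CPM against 156 ± 24.6 CPM in the surrogate light chain class (log2 difference -0.77 ± 0.22, edgeR, adjusted p = 0.0042). Il7 itself had at most 1 UMI in any class. Il2ra also stands in the marker list of the surrogate light chain class, where it had 4 UMIs.

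Among 7 other JAK and STAT genes 4 were tested, and all 4 were lower in dividing than in non-dividing cells (23.3% of all genes lower), with a log2 difference of -1.67 ± 0.25 for Stat3 (edgeR, adjusted p = 5.2e-07). Stat4, a mediator of interleukin 12 signals, was the 1 gene of the 4 called in the MHC class II class, at 3.53 ± 3.67 CPM against 88.8 ± 48.0 CPM in the surrogate light chain class (log2 difference -4.69 ± 0.59, edgeR, adjusted p = 5.6e-11). In the Cd2 class 2 of the 4 were lower. Of all genes 26.6% were called either way in the MHC class II class and 26.8% in the Cd2 class. Of 15 other negative regulators 13 were tested between dividing and non-dividing cells and 1 was called, the adaptor gene Sh2b3 (-0.65 ± 0.21, edgeR, adjusted p = 0.0104), where 47.8% of all genes were called. Socs2, another inhibitor induced by STAT5, was lower in the MHC class II and Cd2 classes than in the surrogate light chain class, at log2 differences of -1.21 ± 0.24 and -1.20 ± 0.30 (edgeR, adjusted p = 2.4e-05 and 0.001). The phosphatase gene Ptpn6 was higher in the MHC class II class by 1.88 ± 0.30 (edgeR, adjusted p = 1.7e-07).

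Genes that the receptor acts on were read from lists of 16 survival and growth genes and of 15 genes that the signal holds down in B precursors. The kinase gene Pim1, a STAT5 target, stood at 1490 ± 479 CPM in the Cd2 class and 669 ± 158 CPM in the MHC class II class, against 556 ± 167 CPM in the surrogate light chain class (log2 difference of the Cd2 class 1.25 ± 0.16, edgeR, adjusted p = 6.0e-11). Pim2 and Bcl2l1, a survival gene, were higher in the Cd2 class by 4.06 ± 0.46 and 3.00 ± 0.36 (edgeR, adjusted p = 1.6e-12 and 8.8e-12). Of 13 growth genes tested 6 were higher and 0 lower in the Cd2 class (median 0.45, all genes -0.06, 12.4% of all genes higher). In the MHC class II class 4 were higher and 2 lower (median 0.21, all genes 0.02, 12.9% of all genes higher). In dividing against non-dividing cells 8 of 13 were lower (23.3% of all genes lower) and 1 was higher, the cyclin gene Ccnd3 (1.43 ± 0.15, edgeR, adjusted p = 1.1e-10), which stood at 384 ± 79.4 CPM in the dividing class. Against the surrogate light chain class alone 3 of 13 were higher and 3 lower in dividing cells (median 0.07, all genes -0.01), where 46.9% of all genes were called.

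Of the genes held down by the signal 14 were tested. In the Cd2 class 10 were higher and 0 lower, in the MHC class II class 8 were higher and 0 lower, and in dividing against non-dividing cells 0 were higher and 11 lower. Against the surrogate light chain class alone 6 were higher and 6 lower in dividing cells (median -0.20, all genes -0.01), where 46.9% of all genes were called. Klf2 and Ikzf3 were among the higher (1.46 ± 0.25 and 3.00 ± 0.56, edgeR, adjusted p = 2.8e-07 and 2.6e-06). Of all genes 12.4% were called higher in the Cd2 class, 12.9% higher in the MHC class II class and 23.3% lower in dividing than in non-dividing cells. The log2 difference of dividing from non-dividing cells was -2.46 ± 0.20 for Rag1 and -0.90 ± 0.11 for Blnk, an adaptor of the pre-B-cell receptor (edgeR, adjusted p = 2.1e-13 and 1.2e-08). Klf2, Spib and Ikzf3, regulators of later B-cell stages, were higher in the Cd2 class by 3.32 ± 0.22, 2.32 ± 0.18 and 4.77 ± 0.48 (edgeR, adjusted p = 3.7e-25, 1.7e-21 and 5.4e-15). The median difference of this list was 0.80 in both classes, against -0.06 in the Cd2 class and 0.02 in the MHC class II class for all genes. Ebf1 and Pax5 of the growth list and Rag1, Rag2 and Blnk of this list also stand in the marker lists of the classes.

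Over 22 sums of classes and libraries, the genes most like Il7r in level were Bach2 (Pearson r = 0.87 on log2(CPM + 1)), Sbk1 (0.83), Polm (0.82), Med13 (0.81) and Hvcn1 (0.80), among 3140 genes averaging at least 50 CPM. Bach2 is a repressor that acts in B-cell development, and Polm is a DNA polymerase of end joining. Il2rg was most like Ccpg1 (0.92), Cd37 (0.87), Nfkb2 (0.86), Dpm1 (0.85) and Cd53 (0.84). Jak1 was most like Cript (0.81), Grap (0.80), Cd79a (0.79), Usp3 (0.78) and Arpc5 (0.78). Socs1 and the 5 sparse members had under 500 UMIs and were not ranked. The sums share libraries and the class contrast, and Cd37 and Cd79a stand in the marker lists, so these values describe the pattern only.

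Age gave no called member in the fits reported here, which held no block on replicate number. The fits with that block are given with the processing alternatives. In non-dividing cells Il7r averaged 231 ± 50.2 CPM in aged and 186 ± 38.3 CPM in young libraries (difference 0.26 ± 0.26, edgeR, adjusted p = 0.999). Il2rg averaged 197 ± 19.4 CPM in aged and 179 ± 72.4 CPM in young libraries, and Jak1 134 ± 12.5 CPM in aged and 121 ± 18.9 CPM in young. Socs1 averaged 111 ± 34.4 CPM in aged and 72.2 ± 44.9 CPM in young libraries (n = 2 aged and 3 young throughout). The ranges of these 4 genes overlapped. edgeR called 0 of 6 members, and 0% of 6453 genes, at an adjusted p of 0.05. At an unadjusted p under 0.05 stood 114 genes and 0 members, and DESeq2 called 0 members. Simulated 2-fold changes were recovered for 11.5% of genes in this comparison and 4-fold changes for 81.2%, so changes of moderate size could have been missed.

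In the surrogate light chain class, Il7r stood at 135 and 136 CPM in aged and at 131, 46.4 and 29.6 CPM in young libraries (22 and 29 UMIs in aged, 13, 5 and 6 UMIs in young). Both aged libraries lay above all 3 young ones, narrowly above young replicate 1, with a difference of 1.09 ± 0.46 (edgeR, unadjusted p = 0.0261, adjusted p = 0.999). In that class 0% of 3094 genes passed the adjusted threshold of edgeR, and 85 had a p below 0.05 before adjustment. In dividing cells Il2rg stood at 21 and 30 CPM in aged and at 31.5, 45.7 and 82.6 CPM in young libraries. The aged values rest on 4 and 6 UMIs and lay narrowly below the young ones, and with marker gates the ranges overlapped (24.5 and 34.5 CPM in aged, 32.8, 72.3 and 87.9 CPM in young libraries). Il7r differed there by -0.34 ± 0.34 and Jak1 by -0.60 ± 0.45 (edgeR, adjusted p = 0.997 each). Of 3368 genes 0% passed the adjusted threshold there, and 111 had a p below 0.05 before adjustment. The test of whether the age difference of Il2rg itself differed between dividing and non-dividing cells gave -1.22 ± 0.50 (edgeR, unadjusted p = 0.0219, adjusted p = 1), where 0% of 6508 genes were called. Shares of thinned cells with a UMI of a member gave exact two-sided permutation p-values of 0.2 to 1 in 18 comparisons, and adjusted values of 1. The smallest that this test can give for 2 against 3 libraries is 0.2, because it doubles the p of a single side.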

How the data were processed

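UMI counts per gene and barcode were deposited by the authors for 5 libraries. Cell Ranger and the build mm10 are named in the submitters' processing notes; the labels' protocols say that PCR cycles were adjusted per sample. Barcodes with at least 500 genes, 1000 UMIs and at most 10% mitochondrial UMIs were kept and clustered with scanpy 1.11.5 (2000 variable genes, 30 components, 15 neighbours, Leiden resolution 0.8). Scrublet marked 58 doublets, which stayed in except in an alternative. Of 27998 IDs, 27645 matched GENCODE release 21.

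Counts were summed per library and class with at least 10 cells and tested with edgeR 4.0.16 (quasi-likelihood, TMM, filterByExpr, Benjamini-Hochberg over all genes tested, threshold 0.05), with library as a block between classes. The SE given with an edgeR difference is the size of the log2 difference divided by the square root of the F value, because the test prints no SE. The step was tested on simulated data. The alternatives included DESeq2 1.42.0 and leaving out each library.

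The members and lists were chosen with earlier results of these data known. All 9 members are named, and of each other list up to 3 genes of smallest p per comparison; some genes of these lists are not reported here. Nothing says that libraries came from separate animals. The p-values of the age comparisons therefore measure the spread between libraries. Those between classes, fitted with library as a block, measure the spread of the class differences over libraries. Intervals and limits cover counting error only.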

Additional observations from a re-analysis of the deposited data

Results flagged for a closer look

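Cish, the STAT5 target that blocks the receptor, had its highest pooled level outside the B lineage. The mixed cluster 4, which entered no comparison, held 11.7 CPM from 21 UMIs, above the 6.35 CPM of the surrogate light chain class and above every other B-lineage cluster in sums pooled over libraries. Per library the order did not hold, at 11.8 CPM in young replicate 1 and 14.8 CPM in aged replicate 3 for the mixed cluster and up to 12.3 CPM, in aged replicate 2, for the surrogate light chain class. Of those 21 UMIs 20 came from young replicate 1, which gave 167 of the 190 cells of the cluster.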

How the results depend on the processing

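Leaving out each library gave 3 to 4 called members for dividing against non-dividing cells and for dividing against surrogate light chain cells, 2 to 3 for each later class (Socs3 added without aged replicate 2 or young replicate 3), 1 to 2 for cluster 1 against cluster 5 and for cluster 8 against cluster 0, and 0 for age. Other counts that moved were 5 with every barcode for dividing against non-dividing cells (3 as reported, with Il7r and Stat5a added), 4 and 5 without a filter on low counts for the MHC class II and dividing classes against surrogate light chain cells (2 and 3 as reported, with Jak3 and Socs3 added), and 1 with DESeq2 for cluster 8 against cluster 0, where Socs1 had no adjusted p.

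With 1 aged library left, it is assumed to vary as the others do. The replicate numbers are shared by 2 pairs of libraries and are not stated to pair them. Deviations of same-numbered libraries from their group means correlated at r = 0.27 and 0.17 over 6453 genes. The deviations of 2 aged libraries mirror each other, so these values are not separate evidence of pairing. Both replicate 2 libraries lacked Xist UMIs and both replicate 3 libraries held them, so the block cannot be told apart from that difference. With replicate number as a block, Il7r was called in the surrogate light chain class of aged against young (1.87, edgeR, adjusted p = 0.0193), 1 member against 0 without the block, and 17, 6 and 5 genes were called in non-dividing, dividing and surrogate light chain cells against 0 as reported. Without a filter on low counts 12, 3 and 1 genes were called for age, and without aged replicate 2 or 3 there were 2 in the surrogate light chain class.

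The fold changes that turned sign were not called as reported; the cause was not tested. With every barcode the log2 difference of Il2rg was 0.058 for the MHC class II against the surrogate light chain class (0.064 with marker gates) and -0.029 for age in non-dividing cells (-0.21 with the block), and that of Jak1 for age there was -0.15. Stat5b in dividing against non-dividing cells gave -0.036 with DESeq2, -0.044 with every barcode and -0.20 with marker gates, and for age in non-dividing cells -0.069 without doublets, -0.024 with marker gates and -0.021 with the block. Il2rg gave -0.13 without a filter in the Rag class and -0.13 with the block for age in the surrogate light chain class. Marker gates gave 0.035 for Il7r between the Cd2 and MHC class II classes, -0.30 for Socs1 in the dividing against the surrogate light chain class, and -0.83 for the difference of its age effect between dividing and non-dividing cells (-0.0097 without a filter). Leaving out a library, Il2rg ranged from -0.10 to 0.24 in the Cd2 class and -0.22 to 0.39 in the Rag class, each against surrogate light chain cells, from -0.0020 to 0.25 between the Cd2 and MHC class II classes, and for age from -0.20 to 0.23 in non-dividing and -0.13 to 0.62 in surrogate light chain cells. Socs1 ranged from -0.22 to 0.37 in dividing against surrogate light chain cells, -0.086 to 1.10 in cluster 1 against cluster 5 and -0.14 to 1.21 in the difference of its age effect. For age in non-dividing cells Jak1 ranged from -0.074 to 0.24, Stat5a from -0.54 to 0.60 and Stat5b from -0.042 to 0.18, and Jak1 from -0.077 to 0.40 in cluster 1 against cluster 5.

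Numbers of genes called moved by over 1.5 times with marker gates (1856 against 3108 for division, 668 against 1222 for the MHC class II class, 45 against 194 between the later classes), with DESeq2 (636 against 1075 for cluster 1, 114 against 259 for cluster 8, 125 between the later classes) and without a filter (484 against 286 for the Rag class, 85 between the later classes). Leaving out libraries gave 96 to 301 genes for the Rag class, 99 to 173 between the later classes, 375 to 1043 for cluster 1 against cluster 5, 128 to 238 for cluster 8 against cluster 0 and 0 to 5 for the difference of age effects. Every barcode of 500 UMIs was not run for the clusters. Depth limits Jak3, Stat5a, Stat5b, Socs3 and Cish throughout.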
